A study of Homo sapiens with 41 samples.

Results

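The 84 protein-coding genes of the cytosolic ribosome were followed in T47D cells under salt stress, out of 19974 protein-coding genes on chromosomes 1 to 22 and X. They were chosen by symbol in the RefSeq table of GRCh38.p14: RPL or RPS with a number and an optional suffix A, L, X or L with a number, together with RPLP0, RPLP1, RPLP2 and RPSA, and without the RPS6K kinase genes and chromosome Y. The set held 32 small subunit and 52 large subunit genes, 7 of which carry the symbol of a second copy (RPL3L, RPL7L1, RPL10L, RPL22L1, RPL26L1, RPL39L and RPS27L). FAU and RPL36AL, which also encode ribosomal proteins, fall outside the symbols used. The rule uses symbols and no measured value, although it was set with earlier results of these data known.

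T47D is a hormone-responsive line derived from a human breast cancer of the luminal kind. All cells were kept in steroid-depleted serum and then overnight without serum, which holds them in G0/G1, so the unstressed controls share this starvation. Chromatin immunoprecipitation with sequencing gave 29 peak lists from 41 samples, each list from 1 library, and the 12 input samples have no list. RNA polymerase II (Pol II) was mapped in 2 libraries without stress and 2 after 1 h in 110 mM NaCl. CTCF was mapped in 3 libraries without stress, 2 after 7.5 min, 1 after 30 min and 3 after 1 h of 110 mM NaCl, and in 1 library after 1 h of NaCl followed by 1 h in isotonic medium, called recovery here. RAD21 was mapped in 3 libraries without stress, 3 at 1 h and 3 at recovery. For both CTCF and RAD21, each of no stress, 1 h and recovery also had 1 library from cells pre-treated for 2 h with triptolide at 500 nM, which blocks the start of transcription. Replicate 3 and every triptolide library came from a second submission (set 2). Groups follow the titles, since in 6 of the 12 set 2 libraries tag and title disagree on whether triptolide was given.

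Ribosomal proteins are made in equimolar amounts and are among the most heavily transcribed housekeeping genes of a proliferating cell. Their mRNAs typically begin with a terminal oligopyrimidine (TOP) tract, a cytosine at the cap followed by a run of pyrimidines, through which growth and nutrient signalling controls their translation. CTCF binds a fixed DNA motif and stops the cohesin ring, of which RAD21 is a subunit, as it extrudes chromatin loops, and both are often found near promoters of active genes.

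RefSeq promoter windows of GRCh38.p14, 300 bases each, were at hand for 67 of the 84 genes. Those without one included RPS15A, RPL37, RPL3L, RPL39L, RPL8, RPL30, RPL23, RPL5, RPL7, RPS2, RPS20 and RPL23A. A C at a listed start followed by at least 4 pyrimidines was found in 47 of the 67 genes (70.1%), compared with 987 of the 15812 genes with a window (6.24%). The starts of 6 genes are shown because they carry the tract typical of the family while their Pol II coverage at 1 h, given below, lay at opposite ends. RPS27A, RPL37A and RPS3A were without a Pol II region in both 1 h libraries, and RPS27, RPLP2 and RPS16 were covered in full in all 4 libraries. Capitals mark the pyrimidine run from the start base, which is the base after the 15 in lower case.
RPS27A, chr2:55232673-55232702, plus strand: tgcgcggcgttcttcCTTTTCgatccgcca
RPL37A, chr2:216498829-216498858, plus strand: gcaccgcgtctcttcCTTTCTgggctcgga
RPS3A, chr4:151099613-151099642, plus strand: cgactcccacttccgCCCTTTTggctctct
RPS27, chr1:153990747-153990776, plus strand: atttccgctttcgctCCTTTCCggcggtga
RPLP2, chr11:809952-809981, plus strand: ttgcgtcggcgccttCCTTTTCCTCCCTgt
RPS16, chr19:39435935-39435964, minus strand: gtggcccctagctttCCTTTTCCggttgcg
The runs were 6, 6 and 7 bases long in the genes without a region at 1 h and 7, 13 and 8 bases long in those covered throughout, whose regions had mostly weak support at 1 h, as given below. The 20 genes without a tract at any listed start were RPL10A, RPL10L, RPL15, RPL17, RPL19, RPL26L1, RPL27, RPL3, RPL32, RPL4, RPL6, RPL7L1, RPL9, RPS15, RPS26, RPS27L, RPS28, RPS29, RPS4X and RPS7. A match depends on which base RefSeq lists as the start. Of other motifs searched on both strands of the same windows, CCGGAAG, the core bound by ETS factors, was in 35.8% of the ribosomal protein genes and 16.5% of all genes. AANATGGC, the core of the YY1 motif, was in 16.4 and 9.66%. GGGCGG (58.2 and 64.2%), TATAAA (10.4 and 12.4%) and CACGTG (7.46 and 10.9%) were no more frequent in ribosomal protein genes.

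Without stress, Pol II regions covered nearly the whole length of most ribosomal protein genes, and after 1 h of NaCl coverage was lower in most of them. The share of the gene span covered by the authors' broad Pol II regions had a median of 100% in both unstressed libraries and of 16.2 and 18.1% in the 1 h libraries. Mean coverage was 86.3 and 89.4% without stress and 38.6 and 36.6% at 1 h. Over all genes the means were 28.2, 27.4, 15.8 and 17.0%. By this mean, the ribosomal protein genes stood far above other genes before stress and remained above them at 1 h in both libraries. At 1 h any region was present for 63.1 and 67.9% of them, compared with 64.6 and 77.8% of all genes. The difference of the group means was negative for 66 of the 84 genes, 0 for 13 and positive for 5, with a median of -51.4 percentage points, and over all genes it was negative for 55.1% with a median of -1.61 points.

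**Figure D1:**
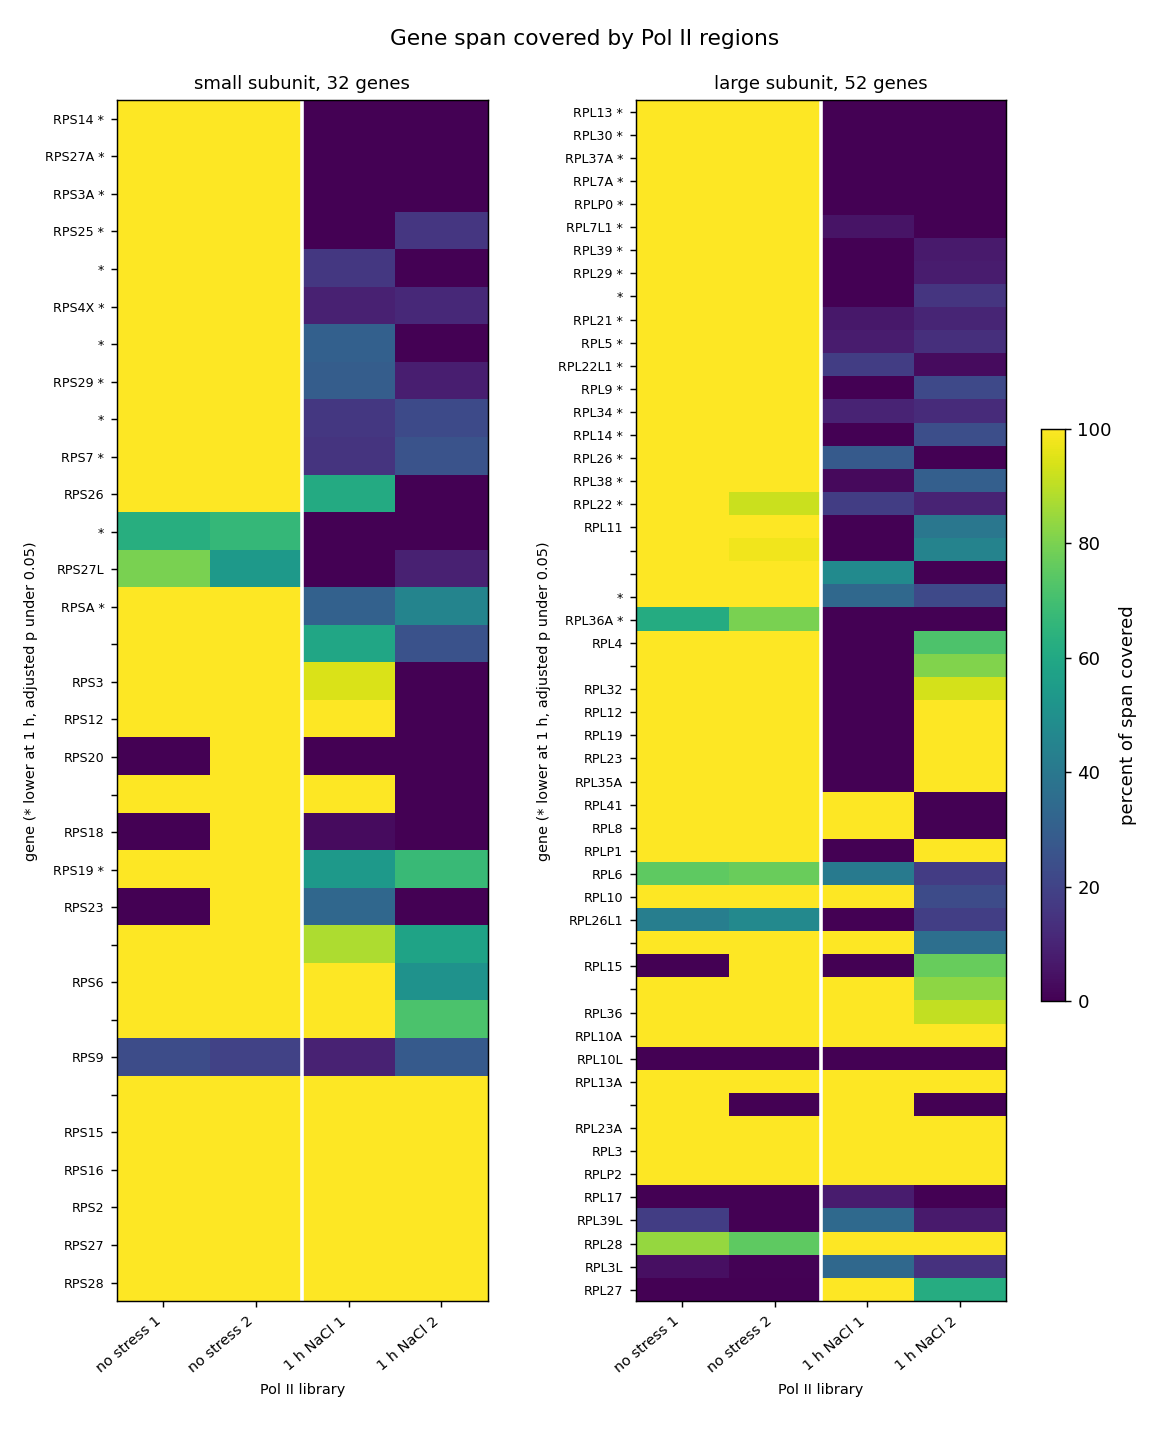
Percent of each gene's span covered by Pol II regions (colour, 0 to 100) for the 84 ribosomal protein genes (rows, by subunit, ordered by difference; genes named in the text are labelled) in the 4 libraries (columns); a star marks the 33 genes lower at 1 h. Most rows are full without stress, and at 1 h they separate into empty rows, rows full in both libraries and rows full in only 1 of them.

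Coverage was tested with limma on the genes with a mean of at least 10% over the 4 libraries, 11102 of all genes and 82 of the 84 (all but RPL10L and RPL17). At a Benjamini-Hochberg adjusted p under 0.05, 33 ribosomal protein genes were lower at 1 h and 0 were higher. Of all genes tested, 19.5% were called lower and 4% higher. At an unadjusted p under 0.05, 42 ribosomal protein genes passed, a count with no share over all genes beside it. The 2 libraries at 1 h lay below both unstressed ones in 46 of the 82 genes, compared with 50.3% of all genes tested, and above both in 3 (RPL27, RPL28 and RPL3L), compared with 14.6%. Nothing in the labels says that the replicates were separate cultures, so the p-values measure only the spread between these libraries. The 33 calls depended on single libraries: their number fell when either unstressed library was left out and rose when either 1 h library was. Whether the number over all genes moved alike is not given here. Centring each library on its median, which raised every difference by 26.2 points, gave 27 lower and 14 higher ribosomal protein genes, and 1022 lower and 1397 higher of all genes in place of 2165 and 444.

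Coverage ends at 100%, so genes covered in full before stress could only stay or fall, and the shares that follow describe them without a test. Among genes covered to at least 90% in both unstressed libraries, 31 of 67 ribosomal protein genes (46.3%) and 947 of 1894 genes in all (50.0%) were called lower. Of the ribosomal protein genes under 90% in an unstressed library, 2 of the 15 tested were called lower (13.3%). No share over all such genes is beside this count, so it says nothing particular to the family. Of the same 67, 11 (16.4%) were under 10% in both 1 h libraries and 12 (17.9%) were still at 90% or more in both. The shares over all 1894 genes were 19.1 and 14.1%. Another 11 of the 67 (16.4%) were at 90% or more in 1 of the 1 h libraries and under 10% in the other, compared with 10.5% of the 1894. Gene length moves with these shares: the ribosomal protein genes had a median span of 5.05 kb and none was longer than 27.7 kb, while the median over all genes was 24.2 kb. Among all genes no longer than 27.7 kb and covered without stress (1582), 45.0% were called lower, 19.0% were under 10% and 16.3% were still at 90% or more in both 1 h libraries.

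**Figure D2:**
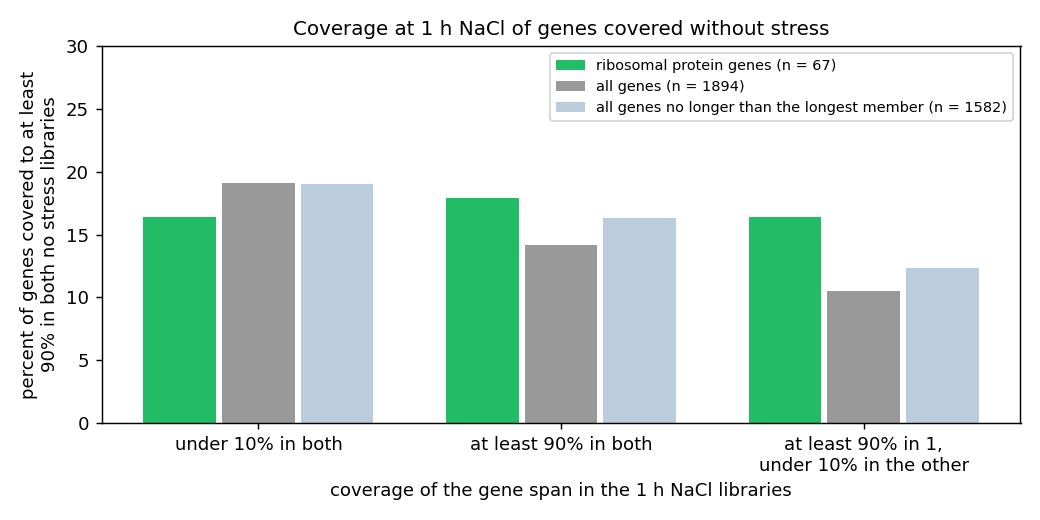
Percent of genes covered to at least 90% in both unstressed Pol II libraries (y axis) that had each coverage at 1 h (x axis), for ribosomal protein genes, all genes, and all genes no longer than the longest ribosomal protein gene. Ribosomal protein genes stand at 16.4, 17.9 and 16.4% and all genes at 19.1, 14.1 and 10.5%.

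The 8 genes with the largest fall were covered in full in both unstressed libraries and not at all in either 1 h library. They were RPLP0 (chr12:120196699-120201111), which encodes the P0 protein of the ribosomal stalk, RPL13 (chr16:89560657-89566829), RPL7A, RPL30, RPL37A, RPS3A, RPS14 and RPS27A, which makes a ubiquitin fusion protein. In each the difference was -100 percentage points (SE 3.86, limma adjusted p = 0.0062). The replicates showed no spread at all, so this SE comes entirely from the spread of other genes. Not all of these regions were well supported before stress. Counting only regions with a deposited -log10 q of at least 1.3, which corresponds to a false discovery rate of 0.05, the difference was still -100 points for RPLP0, RPL13, RPL30 and RPL37A, and -50 points without a call for RPS3A, RPS14 and RPS27A (limma adjusted p = 0.408). RPL7A could not be tested, since its unstressed regions had values of 1.11 and 1.24. RPL7L1, a second copy, followed with 100 and 100% without stress and 5.09 and 0% at 1 h. RPL39 had 100 and 100% without stress and 0 and 7.04% at 1 h, from unstressed regions with a -log10 q of 0.19 and 0.13 only. In all of these the groups did not overlap. The other called genes had differences from -96.2 points (RPL29) to -39.2 points (RPS19), and they included RPS25, RPS4X, RPL5, RPL21, RPL34 and RPSA, the laminin receptor homologue of the small subunit.

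At the other end, 11 genes were covered to 100% in all 4 libraries, among them RPL3, RPL10A, RPL13A, RPL23A, RPLP2, RPS2, RPS15, RPS16, RPS27 and RPS28. This rests on weak and often very wide regions at 1 h. The best regions of the 11 genes had a median width of 16.6 and 14.7 kb without stress and 107.1 and 21.6 kb at 1 h, and 8 and 9 of the genes had a region with a -log10 q of at least 1.3 without stress and 4 and 0 at 1 h. Counting only such regions, RPS2, RPL23A and RPS28 were called lower (-100 points, limma adjusted p = 2.8e-06). Their replicates showed no spread by this count, so this p comes entirely from the spread of other genes. For RPS2 the best -log10 q was 1.77 and 2.80 without stress and 0.477 and 0.122 at 1 h. By the same count, RPL3, RPL10A, RPL13A, RPLP2, RPS15 and RPS16 had -50 points without a call. RPS27 had no such region in any library, and its region widened from 7.61 and 8.49 kb to 107.1 and 74.5 kb. RPL36 had 100, 100, 100 and 90.7%. RPL3 and RPL10A are proteins of the large subunit and RPS2 and RPS15 of the small subunit, so both outcomes were found in both subunits.

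A further 12 genes differed by at least 90 points between the 1 h libraries. Among them, RPL8, RPL41 and RPS12 were at 100% in replicate 1 and 0% in replicate 2. RPL12, RPL19, RPL23, RPL35A and RPLP1 were at 0% in replicate 1 and 100% in replicate 2. RPL32 had 0 and 93.5% and RPS3 had 94.5 and 0%. Without stress, RPL15, RPS18, RPS20 and RPS23 were at 0 and 100%. The genes named here passed no test (limma adjusted p from 0.42 to 0.899), and no direction can be read from them.

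Few ribosomal protein genes were low before stress. RPL10L, a retrotransposed second copy, had no region in any library, and RPL17 had none except 7.73% in 1 h replicate 1. RPL27 (chr17:42998273-43002959) went against the rest, with 0 and 0% without stress and 100 and 62.0% at 1 h, a difference of 81.0 points that missed the threshold (SE 16.5, limma adjusted p = 0.0653). RPL28 had 84.2 and 75.2% without stress and 100 and 100% at 1 h (limma adjusted p = 0.0575), and it passed the threshold as higher on the arcsine scale (0.0285), with centring (0.0273), with a mean of at least 25% (0.0483) and without unstressed replicate 1 (0.0428) or 2 (0.0447). Counting only regions with a -log10 q of at least 1.3, it turned to a call in the opposite direction, from 49.3 and 49.3% to 0 and 0% (adjusted p = 0.0238). RPL3L, a second copy known from striated muscle, had 3.93 and 0.523% and then 33.9 and 14.4% (adjusted p = 0.189). RPS9 was low throughout, at 23.2, 19.6, 9.48 and 28.4%. The other second copies gave 18.0, 0, 34.0 and 7.08% for RPL39L, 42.9, 47.0, 0 and 18.4% for RPL26L1 and 80.0, 53.5, 0 and 9.17% for RPS27L, none of which was called. RPL22L1 and RPL7L1 were covered in full without stress and were the 2 second copies called lower.

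The regions themselves had less support at 1 h. A region over a ribosomal protein gene was present for 77 and 79 genes without stress and for 53 and 57 at 1 h. A region with a -log10 q of at least 1.3 was present for 52 and 57 genes without stress and for 10 and 2 at 1 h. The best -log10 q per gene had a median of 2.21 and 3.15 without stress and 0.222 and 0.0334 at 1 h, and the regions had a median width of 15.2 and 15.6 kb and then 5.72 and 2.13 kb. Unstressed regions were thus wider than the genes, which makes coverage of a short gene close to all or nothing. Over all genes, a region with that support was found for 47.9 and 51.3% without stress and 15.3 and 8.67% at 1 h. The shares of ribosomal protein genes were 61.9 and 67.9% and then 11.9 and 2.38%. They lay above those of all genes without stress and below them at 1 h. Of the 11 genes covered in full throughout, RPL13A (3.08), RPS15 (2.90) and RPS16 (1.96) were among those that reached 1.3 in 1 h replicate 1, and none did in replicate 2. RPL27 had a best value of 0.214 and 0.0826 at 1 h. Counting only regions with at least 1.3, 33 of the 64 ribosomal protein genes that could be tested were lower and 0 higher, against 25.6% lower of all genes. With supported regions over only 10 and 2 genes at 1 h, most of the 64 passed the filter on the mean through the unstressed libraries. Such genes could hardly be called higher, so these counts do not show a direction on their own. Only 17 of the genes lower here were among the 33 called from all regions. Of the other 16 called from all regions, 10 were tested without a call and 6 could not be tested. The read depth of the libraries is not in the lists, and its part in the lower support at 1 h was not tested. Whether fewer cells carried Pol II on a gene or each cell carried less cannot be told apart in a culture.

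**Figure D3:**
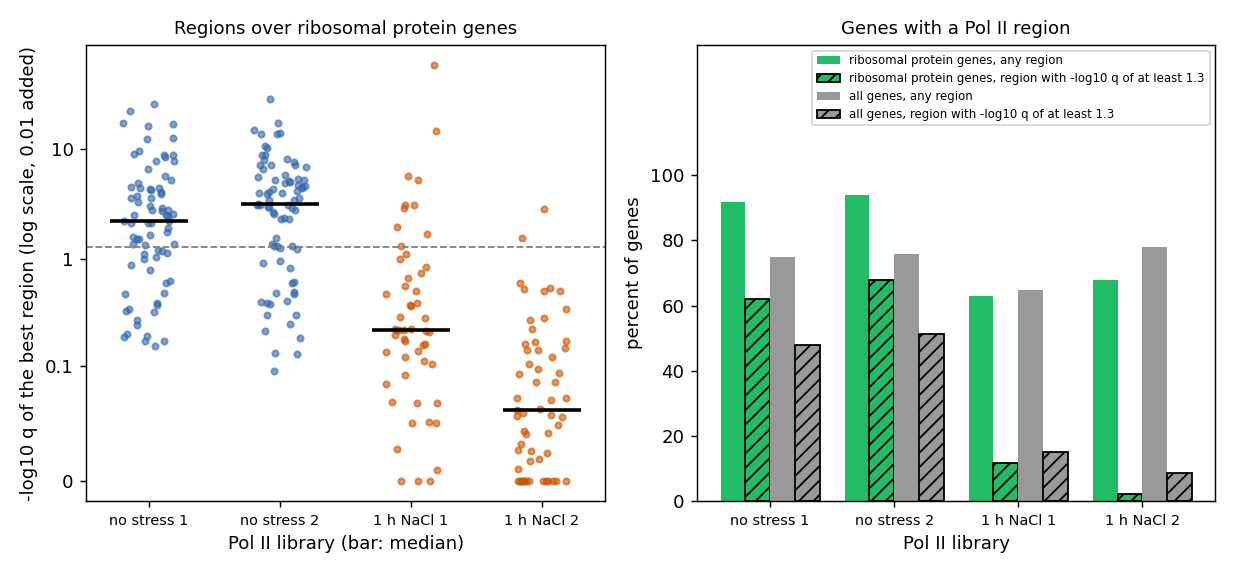
Left, -log10 q of the best Pol II region over each ribosomal protein gene that has a region, by library (points; bar, median; dashed line, 1.3; log axis). Right, percent of ribosomal protein genes and of all genes with any region and with a region of at least 1.3; supported regions are left over 10 and 2 ribosomal protein genes at 1 h.

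The subunits did not separate. In the small subunit 13 of 32 genes tested were lower, with a median difference of -51.4 points, and in the large subunit 20 of 50, with a median of -56.4 points. Among other lists, genes of translation factors and other TOP mRNAs had 10 of 26 lower (median -48.8 points), proteasome subunits 11 of 29 (-40.1), oxidative phosphorylation 21 of 74 with 1 higher (-42.4), ribosome biogenesis 5 of 21 (-50.0) and mitochondrial ribosomal proteins 14 of 66 (-30.8). The median over all genes tested was -20.3 points. These are descriptions, and none of the differences between lists was tested. As a check of the label, 10 and 9 of 12 luminal breast markers had at least 50% coverage without stress and 4 and 7 at 1 h. None of the 18 haematopoietic, fibroblast, neuronal and muscle markers reached 50% without stress, and 2 did in each 1 h library (for the haematopoietic list 1 of 6 and 2 of 6). Mean coverage of the haematopoietic list was 14.2 and 9.93% without stress and 28.5 and 47.4% at 1 h, and its part in the results was not tested.

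Around the genes, coverage of the 10 kb on either side was also lower. The median over the 84 genes was 53.9 and 52.0% of the flanks without stress and 17.2 and 18.5% at 1 h, compared with 15.8, 17.7, 4.48 and 8.63% over all genes. Of 77 ribosomal protein genes tested, 24 were lower and 3 higher (limma, adjusted p under 0.05), compared with 20.6 and 3.62% of all genes. These calls were fragile. Leaving out any 1 library left few or none of them. Without the filter on the mean there were 0 calls, with 42 genes at an unadjusted p under 0.05. No share over all genes is beside these counts. Without a model, both 1 h libraries lay below both unstressed ones in 48 of the 77 genes, compared with 53.6% of all genes tested, and above them in 12, compared with 13.5%.

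RPLP0 had the largest fall of flank coverage, from 100 and 100% to 0 and 1.67% (-99.2 points, SE 8.07, limma adjusted p = 0.0321). RPL21 (87.0 and 93.1% to 1.22 and 0%), RPL13 (88.2 and 100% to 0 and 19.2%), RPL30 (82.7 and 90.1% to 0 and 13.0%) and RPL7A (90.1 and 62.2% to 9.26 and 7.54%) followed, all without overlap. With supported regions only, RPL21 was no longer called (-75.9 points, limma adjusted p = 0.0507) and RPL7A, RPL27 and RPL39L could not be tested. The 3 genes called higher included RPL27 (0 and 0% to 42.6 and 44.0%) and RPL39L (6.36 and 0% to 35.4 and 33.3%). Where the strand was known, the downstream 10 kb had 20 of 59 genes lower and 2 higher (median -43.0 points), compared with 24.1 and 3.37% of all genes. The upstream 10 kb had 10 of 50 lower and 1 higher (median -25.7 points), compared with 9.3 and 2.9%. The difference between the sides was not tested.

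CTCF was found at the ends of many ribosomal protein genes, at 32 to 42 of them without stress and 25 to 34 at 1 h of NaCl, ranges that overlap, and most genes bound in every unstressed library remained bound. A gene was counted as bound where a CTCF peak overlapped the 1 kb on either side of its start or stop. Without stress 42, 32 and 38 of the 84 genes were bound (50.0, 38.1 and 45.2%), compared with 36.6, 19.4 and 42.2% of all genes. At 1 h 34, 25 and 25 were bound (40.5, 29.8 and 29.8%), compared with 25.3, 17.8 and 25.1% of all genes. The share of ribosomal protein genes was above that of all genes in all 6 libraries. After 7.5 min 30 and 24 genes were bound (35.7 and 28.6%), compared with 21.1 and 13.7% of all genes, and after 30 min 22 (26.2%), compared with 12.2%. The shares over all genes were thus lower in these lists too. No test was made, since the whole-list numbers of peaks also differ, from 38571 to 59843 without stress and from 22018 to 35374 at 1 h.

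Of the 29 genes bound by CTCF in every unstressed library, 22 were bound in every 1 h library (75.9%), compared with 74.1% of all genes bound in every unstressed library, which is 12.8% of all genes. None was absent from every 1 h library (0 of 29), compared with 3.82% of such genes, or 0.661% of all genes, and none was gained, compared with 0.00501% of all genes. The other 7 were RPL11, RPL22, RPL27 and RPS26, each in 2 of 3 libraries at 1 h, and RPL7A, RPS25 and RPSA, each in 1 of 3. In all 13 CTCF lists 18 genes were bound (21.4%), compared with 9.54% of all genes. Ordered by the lowest percentile that their best peak reached within any list, the leading 15 of the 22 included RPL10, RPL38, RPL5, RPL36A, RPS3A, RPL32, RPS14, RPL4, RPL39L, RPS4X, RPL26, RPS19 and RPS15. RPL10, an X-linked gene whose protein is needed for subunit joining, never fell below percentile 55.8 of fold enrichment among the peaks of a list, and RPL38 never below 50.1. Pol II coverage was called lower in 11 of the 22 and in 22 of the other 62 genes, which include RPL10L and RPL17, not tested. No share over all genes is beside these counts, and the difference between them was not tested.

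Only CTCF peaks within 1 kb of a gene end were collected. Where the strand was known, 28, 21 and 26 of the peaks without stress lay at a start and 14, 10 and 11 at a stop. Distances differed between genes. In RPL10 the summit was 831 to 868 bp downstream of the start. In RPL38 the summit was 114 to 135 bp upstream of the start over the 13 lists and a separate peak lay 54 to 96 bp before the stop. In RPS3A it was 131 to 173 bp upstream, in RPS15 81 to 130 bp, in RPL36A 91 to 136 bp and in RPS4X 47 to 124 bp. RPL4 was bound at its other end, 115 to 152 bp past the stop. In RPL26 a peak 359 to 413 bp upstream of the start was paired with another 719 to 774 bp past the stop in all 13 lists.

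The core of the CTCF motif, searched on both strands, was in the promoter window of 3 of the 67 genes (4.48%), compared with 3.35% of all genes, and all 3 were bound in every CTCF list. The stretches are shown because the called summits lie on or near the letters in capitals, which mark the match. Positions count from the start base as 0.
RPL38, chr17:74203527-74203586, plus strand, match from -126: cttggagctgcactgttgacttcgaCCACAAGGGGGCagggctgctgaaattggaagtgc
RPS4X, chrX:72277306-72277365, minus strand, match from -92: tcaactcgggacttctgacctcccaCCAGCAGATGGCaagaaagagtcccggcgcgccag
RPLP0, chr12:120201302-120201361, minus strand, match from -239: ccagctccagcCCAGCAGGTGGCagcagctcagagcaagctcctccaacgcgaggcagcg
In RPLP0 the summits were 209 to 252 bp upstream. A shorter core, AGNNGGCGC, which overlaps the longer one, was in 14.9% of the ribosomal protein genes and 16.4% of all genes, so its presence in a window says little. Most bound genes held neither, but many of them lack a window, and the letters of a 300-base window do not reach peaks farther away. Among genes with a CTCF summit inside the window in at least 11 of the 13 lists, RPLP0, RPL38 and RPS4X held the core. RPL10A, RPS3A, RPS15 and RPL36 held the shorter core, and RPL36A and RPL11 held neither.

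**Figure D4:**
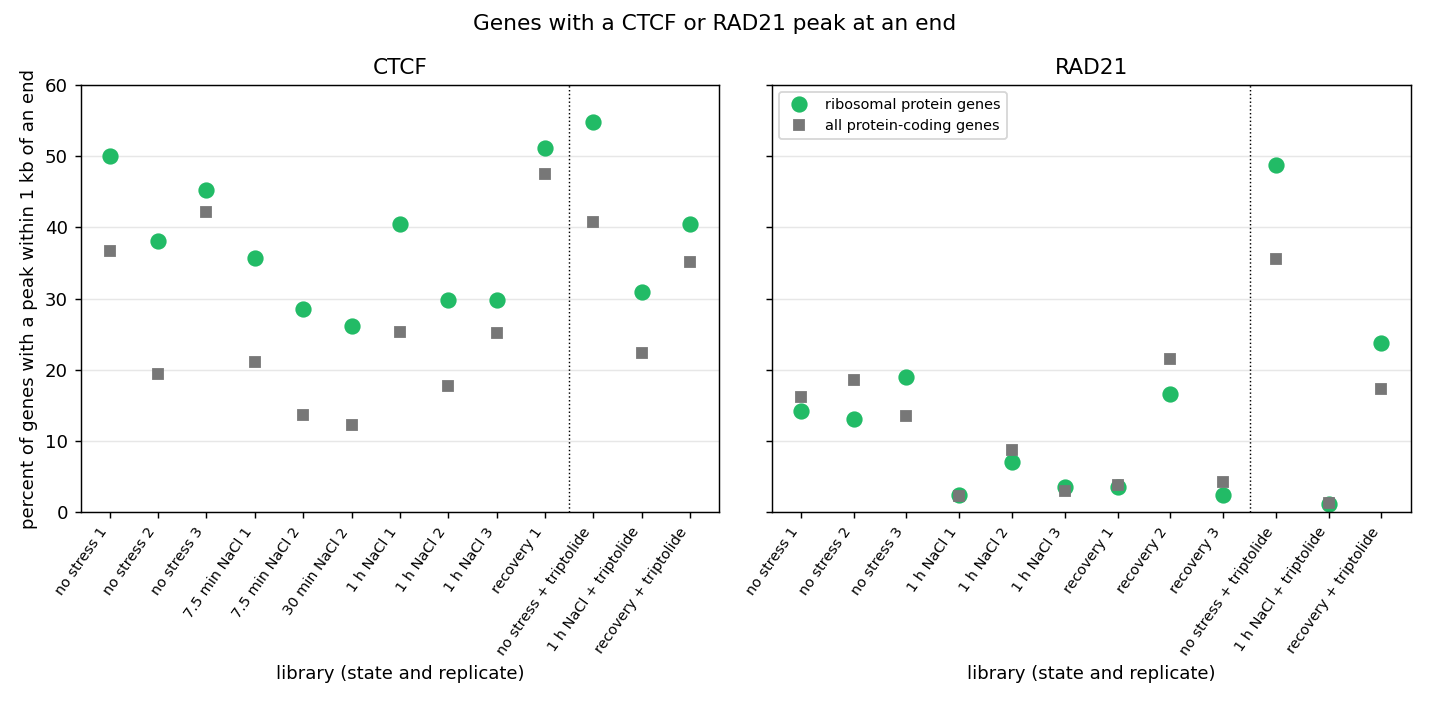
Percent of the 84 ribosomal protein genes (circles) and of all protein-coding genes (squares) with a peak within 1 kb of an end, for each CTCF (left) and RAD21 (right) library; libraries right of the dotted line had triptolide. CTCF falls from 38.1 to 50.0% without stress to 29.8 to 40.5% at 1 h, and RAD21 from 13.1 to 19.0% to 2.38 to 7.14%.

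RAD21 was present at fewer ribosomal protein genes than CTCF, and at fewer still at 1 h. Without stress 12, 11 and 16 of the 84 were bound (14.3, 13.1 and 19.0%), and at 1 h 2, 6 and 3 (2.38, 7.14 and 3.57%). All genes went from 16.2, 18.5 and 13.5% to 2.34, 8.81 and 3.05%. The unstressed and 1 h counts of ribosomal protein genes did not overlap. The RAD21 lists themselves shortened from between 13762 and 24931 peaks to between 4761 and 7843. With the same number of strongest peaks taken from every list (3344), only 1 ribosomal protein gene was bound in every unstressed library and 0 were lost.

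Of the 8 genes with RAD21 in every unstressed library, 5 had none in any 1 h library (RPL13, RPL14, RPL4, RPS19 and RPS26), compared with 39.3% of all genes bound in every unstressed library, or 3.69% of all genes. RAD21 was kept in all 3 at 2 of the 8, among them RPL10A, compared with 19.9% of such genes, or 1.87% of all genes, and RPL26 had it in 1. None was gained, compared with 0.01% of all genes. RPL14 is not a single site, since its peak lay at the start in replicates 1 and 2 and at the stop in replicate 3. In set 2 alone 13 of 16 genes were lost, compared with 77.9% of all genes bound there. Of the RAD21 peaks at ribosomal protein genes, 10 of 12, 10 of 12 and 14 of 16 without stress overlapped a CTCF peak. A peak in any of the 3 untreated CTCF lists without stress was enough. No share over all RAD21 peaks is beside these counts.

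RPL10A (chr6:35468401-35470780), whose protein forms the L1 stalk of the large subunit, was the only ribosomal protein gene bound by RAD21 in all 12 lists, compared with 0.856% of all genes, and it was also bound by CTCF in all 13. Its RAD21 summit lay 144 to 176 bp upstream of the start and its CTCF summit 92 to 141 bp upstream. The authors' fold enrichment of the RAD21 peak ranged from 15.6 to 23.7 without stress, from 6.33 to 13.9 at 1 h and from 6.40 to 34.2 at recovery, values that belong to each list and cannot be compared across lists. RPS26 (chr12:56041918-56044697) lost RAD21 while CTCF stayed in 2 of 3 libraries at 1 h. Its RAD21 summit lay 231 to 264 bp upstream and its CTCF summit 197 to 303 bp upstream. Both windows held the short core, in capitals below, and are shown because these are the start-proximal sites that kept and lost RAD21.
RPL10A, chr6:35468151-35468270, plus strand, match from -225: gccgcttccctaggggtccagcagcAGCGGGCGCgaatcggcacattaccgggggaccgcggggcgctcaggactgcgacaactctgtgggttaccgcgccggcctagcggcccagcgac
RPS26, chr12:56041668-56041727, plus strand, match from -241 on the opposite strand: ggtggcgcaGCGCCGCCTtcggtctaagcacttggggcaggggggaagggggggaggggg
In RPL10A the match lies upstream of every summit, and in RPS26 the match shown lies among them. The RPS26 window held another match from -41, not shown, which lies closer to the start than every summit.

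At recovery the libraries disagreed. RAD21 was at 3, 14 and 2 ribosomal protein genes in recovery replicates 1, 2 and 3, compared with 3.84, 21.5 and 4.31% of all genes. Of the 5 lost genes, 1 (RPL4), 4 (RPL13, RPL4, RPS19 and RPS26) and 0 were bound again, and of the 737 genes lost overall 18.5, 97.4 and 20.4% were. In at least 2 of 3 recovery libraries RPL10A, RPL26 and RPL4 were bound (3.57%), compared with 5.16% of all genes. The return thus rests on replicate 2, whose list held 20400 peaks while replicates 1 and 3 held 4397 and 6492. CTCF had 1 recovery library, with 43 genes bound (51.2%), compared with 47.5% of all genes.

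With triptolide and no stress, RAD21 was found at more ribosomal protein genes. The set 2 library with triptolide had 41 of 84 bound (48.8%) and the set 2 library without it 16 (19.0%), and over all genes the shares were 35.6 and 13.5%. All 16 were among the 41, and 25 were bound only with triptolide (29.8%), compared with 22.3% of all genes. Of the 25, 22 had no RAD21 peak in any untreated library without stress, a count with no share over all genes beside it. They included RPL3, RPL5, RPL11 and RPL23, RPS3A, RPS6 and RPS7, and the stalk genes RPLP1 and RPLP2. Of the 49 RAD21 peaks at these genes with triptolide, 30 (61.2%) overlapped a CTCF peak of the same state with triptolide. Only 1 CTCF list was there to overlap, against 3 for the untreated libraries, so the shares cannot be compared. No share over all RAD21 peaks is beside this one. Of the 49, 28 lay at a start, and the median distance of the 49 was 143 bp. With 1 library per state no replicate stands behind this, and the list with triptolide is the longest of the RAD21 lists (40969 peaks). With 3344 peaks taken from each list the counts were 3 with and 2 without triptolide.

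At 1 h of NaCl triptolide made no such difference, with 1 gene bound by RAD21 with it (RPL10A) and 3 without, and 0 bound only with it, compared with 0.0501% of all genes. At recovery 20 were bound with triptolide and 2 without, 18 of them only with it, compared with 13% of all genes. Those 18 included RPL13, RPL4, RPS19 and RPS26, which had lost RAD21 at 1 h. The untreated recovery library compared here is replicate 3, and the untreated recovery replicate 2 bound 14. CTCF with triptolide was at 46, 26 and 34 genes in the 3 states, against 38, 25 and 43 without it. Over all genes the shares were 40.7, 22.3 and 35.2% with triptolide and 42.2, 25.1 and 47.5% without. Bound only with triptolide were 9, 2 and 0 genes, compared with 3.36, 2.15 and 0.561% of all genes. In every state, for both factors, the tag of 1 library of the pair goes against its title, so which library had the drug rests on the titles.

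**Figure D5:**
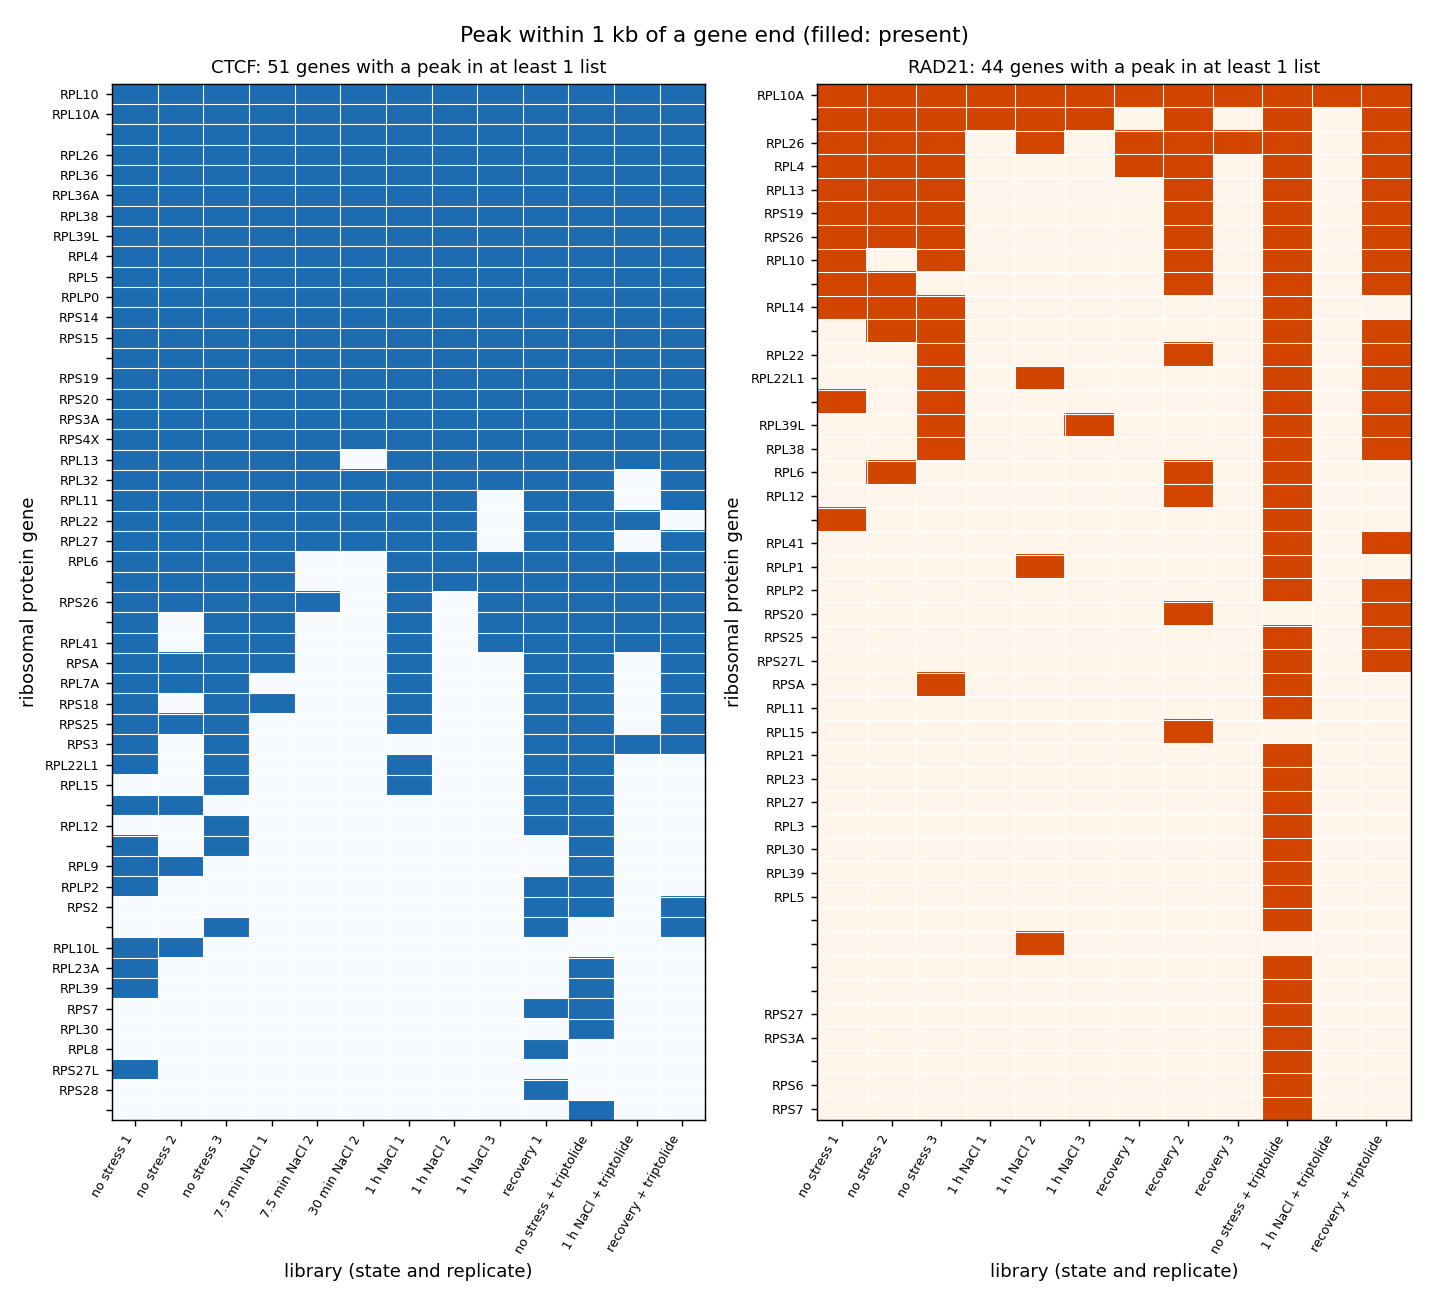
Ribosomal protein genes with a CTCF (left, 51 genes) or RAD21 (right, 44 genes) peak within 1 kb of an end in at least 1 list (rows, labelled where named in the text), by library (columns); filled cells have a peak. The 18 upper CTCF rows are filled in all 13 lists, while only RPL10A is filled in all 12 RAD21 lists and the unstressed triptolide column is filled for 41 genes.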

How the data were processed

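The authors deposited 1 list per library: narrow peaks for CTCF and RAD21 and broad regions for Pol II, in the layout that MACS2 writes. Per the submitters' processing notes, cutadapt, Bowtie2 2.2.6, MACS2 and hg38 were used. For their roles, the calling threshold and the control: not given in the sources used here. The deposited columns are a fold enrichment (a ratio), -log10 p, -log10 q and an integer score, all the authors' values for each peak. Read depth is unknown.

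Peaks on chromosomes 1 to 22 and X were kept, which left out 1.15 to 6.09% of a list. Pol II was measured as the percent of the gene span, or of the 10 kb on each side, covered by regions (Python 3.11.15, pandas 2.3.3), and tested with limma 3.58.1 in R 4.3.3 (lmFit, eBayes with trend) on genes with a mean of at least 10%, with Benjamini-Hochberg adjustment at 0.05 over all genes. The fit was tested on simulated data: large shifts in genes with little replicate spread were recovered, with more false calls than the nominal rate, and smaller shifts with spread drawn from other genes were not, so the calls are approximate and a gene without a call is not shown to be unchanged. A gene was bound by CTCF or RAD21 where a peak overlapped the 1 kb around either end by at least 1 bp, lost when bound in every unstressed and no 1 h library, kept when bound in all, and gained in the opposite case to lost. These counts carry no test and are set beside all genes.

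The members and lists were chosen with earlier results of these data known. Named genes are those with the largest differences in Pol II coverage (10 each way for spans, 5 for flanks), the genes lost, gained or kept (up to 15 each, by the lowest percentile of fold enrichment), and the second copies; genes discordant between libraries were named after their values were seen. Some genes that meet these rules are not reported here by name, and they remain in every count. The series text gives 100 mM NaCl and the titles 110 mM, which was used. Gene annotation gives spans, with strand for 67 of the 84 genes, and no exons. Of the 84, 17 overlap another protein-coding gene, where Pol II regions cannot be assigned to either, and processed pseudogenes of the family could take reads. Alternatives were other windows, thresholds, filters, scales, a replicate block and leaving out each library.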

Additional observations from a re-analysis of the deposited data

How the results depend on the processing

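The count of ribosomal protein genes with lower Pol II span coverage at 1 h (33) was within 1.5 times of that under the arcsine scale, centring, both other filters, the -log10 q minimum and the extended span, where it ranged from 27 to 33. Leaving out 1 library gave 10 to 52. In those fits the lone library is assumed to vary like the others. Replicate numbers are shared between the Pol II groups. Same-numbered libraries showed little shared deviation (r = 0.044 for spans and 0.0545 for flanks, across genes, from 2 pairs). With 2 pairs, this cannot tell whether the numbers pair the samples, and the main fit did not pair them. With a replicate block 0 span calls and 0 flank calls remained among these genes, with 39 and 35 at an unadjusted p under 0.05, in a fit with fewer residual degrees of freedom. CTCF and RAD21 were compared by counts with no test, paired or unpaired.

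The flank count (24) became 15 on the arcsine scale, 2 with centring and 0 without the filter, and few or none remained with 1 library left out. The cause was not tested. With regions of -log10 q of at least 1.3, RPL28 turned from higher to called lower (-49.3 points for the span and -23.9 for the flanks), RPS3A, RPS14 and RPS27A lost their calls, RPS2, RPL23A and RPS28 gained one, and only 17 of the 33 span calls were shared. CTCF was kept at 16 to 25 genes under every alternative. RAD21 was lost at 4 to 7 genes, except 13 in set 2 alone, where fewer libraries must be bound, and 0 with equal peak numbers. Leaving out 1 library gave 5 to 7. At recovery 5 genes were bound in at least 2 libraries with a 2 kb window, against 3, and 2 to 3 with 1 library left out. The 41 genes bound by RAD21 with triptolide became 3 with equal peak numbers. Depth is not in the lists, so it cannot be said what a missing peak allows.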
